A study of Mus musculus with 24 samples.

Results

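Transcripts of 10 genes that encode brakes on mitogen-activated protein kinase (MAPK) signalling were followed through 4 states of mouse CD4 T cells. They are the dual-specificity phosphatase genes Dusp1, Dusp2, Dusp4, Dusp5, Dusp6 and Dusp10, the Sprouty genes Spry1 and Spry2, and the SPRED genes Spred1 and Spred2. They were taken by symbol from the 23420 genes of the deposited count tables, which hold all 10. All groups shared the OT-II transgenes, which give a T cell receptor for an ovalbumin peptide, and a green fluorescent protein reporter driven by the Nr4a1 (Nur77) promoter (genotype label OT2Nur77GFP+/-, C57BL/6 background). Reactivated TH1 cells were helper cells differentiated for 5 days from naive spleen cells towards the interferon-gamma-producing type and then kept for 6 hours with macrophages loaded with antigen. TH1 effector cells were such cells without that last step. Activated naive cells received 6 hours of a stimulus that the labels do not name, and naive cells did not. The labels name no naive cells kept for 6 hours without the stimulus. What the stimulus did and what the hours in culture did therefore cannot be told apart. Each group had 6 libraries. Macrophages free of antigen were given to no TH1 group, so what the macrophages did and what the antigen did cannot be told apart, and the 2 stimulations are not stated to be the same. Ages are not given, and whether each library had its own animal or culture is not stated, so the p-values rest on library-to-library spread alone, which may be technical.

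MAPK cascades pass a signal from the T cell receptor through RAS to the kinase ERK, and through parallel arms to p38 and JNK. Dual-specificity phosphatases remove the activating phosphates from these kinases, some in the nucleus and some in the cytoplasm, with different preferences for ERK, p38 and JNK. Sprouty and SPRED proteins act further up, where they restrain RAS and RAF, and many of these genes are themselves induced by ERK and so form negative feedback loops.

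Counts given to genes ranged from 18457653 to 34262645 per library, and 12584 genes, with all 10 members, had enough counts to be tested. The libraries came from 2 sequencing runs with 3 libraries of each group in each. Levels are in CPM, the count of a gene scaled to a common library total, and a gene was called changed at an adjusted p under 0.05 in edgeR's quasi-likelihood test over all tested genes. Standard errors (SE) refer to the difference of the mean log2 CPM of 2 groups. They were taken from the spread of libraries within each run, so differences between the runs do not enter them. Gene positions are those of build mm10 in the GENCODE M21 annotation, from first to last exon. Summed CD4 T cell markers were at 2940 to 3340 CPM in reactivated TH1, 2830 to 3300 in TH1 effector, 3470 to 3860 in activated naive and 4230 to 4590 CPM in naive libraries. The 17 macrophage markers in the files summed to 16.4 to 24.2 CPM in reactivated TH1, 3.92 to 5.75 in TH1 effector, 10.9 to 13 in activated naive and 8.65 to 12.9 CPM in naive libraries. Lyz2 was at 4.58 to 7.23 CPM in reactivated TH1 and at most at 0.137 CPM in TH1 effector libraries, Csf1r had no count in TH1 effector and activated naive libraries, and Marco had none in any library. The 7 dendritic cell markers summed to 7.19 to 10.7 CPM in reactivated TH1, 1.51 to 3.6 in TH1 effector, 0.833 to 1.91 in activated naive and 0.235 to 0.516 CPM in naive libraries, with Xcr1 at 0 throughout. Most of the sum in reactivated TH1 libraries was Zbtb46, at 6.49 to 9.72 CPM, and the next highest, Itgax, was at 0.32 to 0.613 CPM. The 7 B cell markers summed to 0.549 to 1.41 CPM in reactivated TH1, 2.79 to 29.5 (median 5.8) in TH1 effector, 0.369 to 0.716 in activated naive and 1.11 to 3.85 CPM in naive libraries. The 6 markers of CD8 T and natural killer cells summed to 40.6 to 76.2 CPM in reactivated TH1, 4.74 to 7.23 in TH1 effector, 4.97 to 11 in activated naive and 23.8 to 31.1 CPM in naive libraries, with Klra8 at 0 throughout. Most of this sum was Eomes in reactivated TH1 libraries (35 to 71.4 CPM) and Cd8b1 in naive libraries (22.7 to 30.1 CPM). Cd8b1 was at 3.53 to 4.33 CPM in reactivated TH1 and 4.04 to 6.3 CPM in TH1 effector libraries. Whether these markers came from other cell types, and what part such cells had in the differences between groups, was not tested. In bulk libraries fewer cells with a transcript and less of it per cell cannot be told apart.

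In stimulated naive cells 8 of the 10 genes rose and 2, Dusp1 and Dusp10, fell. The test was passed by 81.9% of all tested genes in that comparison, 41.3% higher and 40.5% lower, so the count of calls is near that of genes at large. By size, all 10 changed at least 2-fold, as did 44.5% of all tested genes, and for all 10 the libraries of the 2 groups did not overlap, as for 66.4% of all. The median absolute log2 fold change was 3.2 over the 10 genes and 0.92 over all tested genes. In reactivated TH1 against TH1 effector cells 8 of the 10 again rose and 2 fell, Dusp10 and Spred2 (79.7% of all genes passed, 39.9% higher and 39.8% lower). Here 8 changed at least 2-fold, as did 32.8% of all genes, and the libraries of 8 did not overlap, as for 59.4% of all. The median absolute log2 fold change there was 1.21 over the 10 genes and 0.65 over all.

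**Figure D1:**
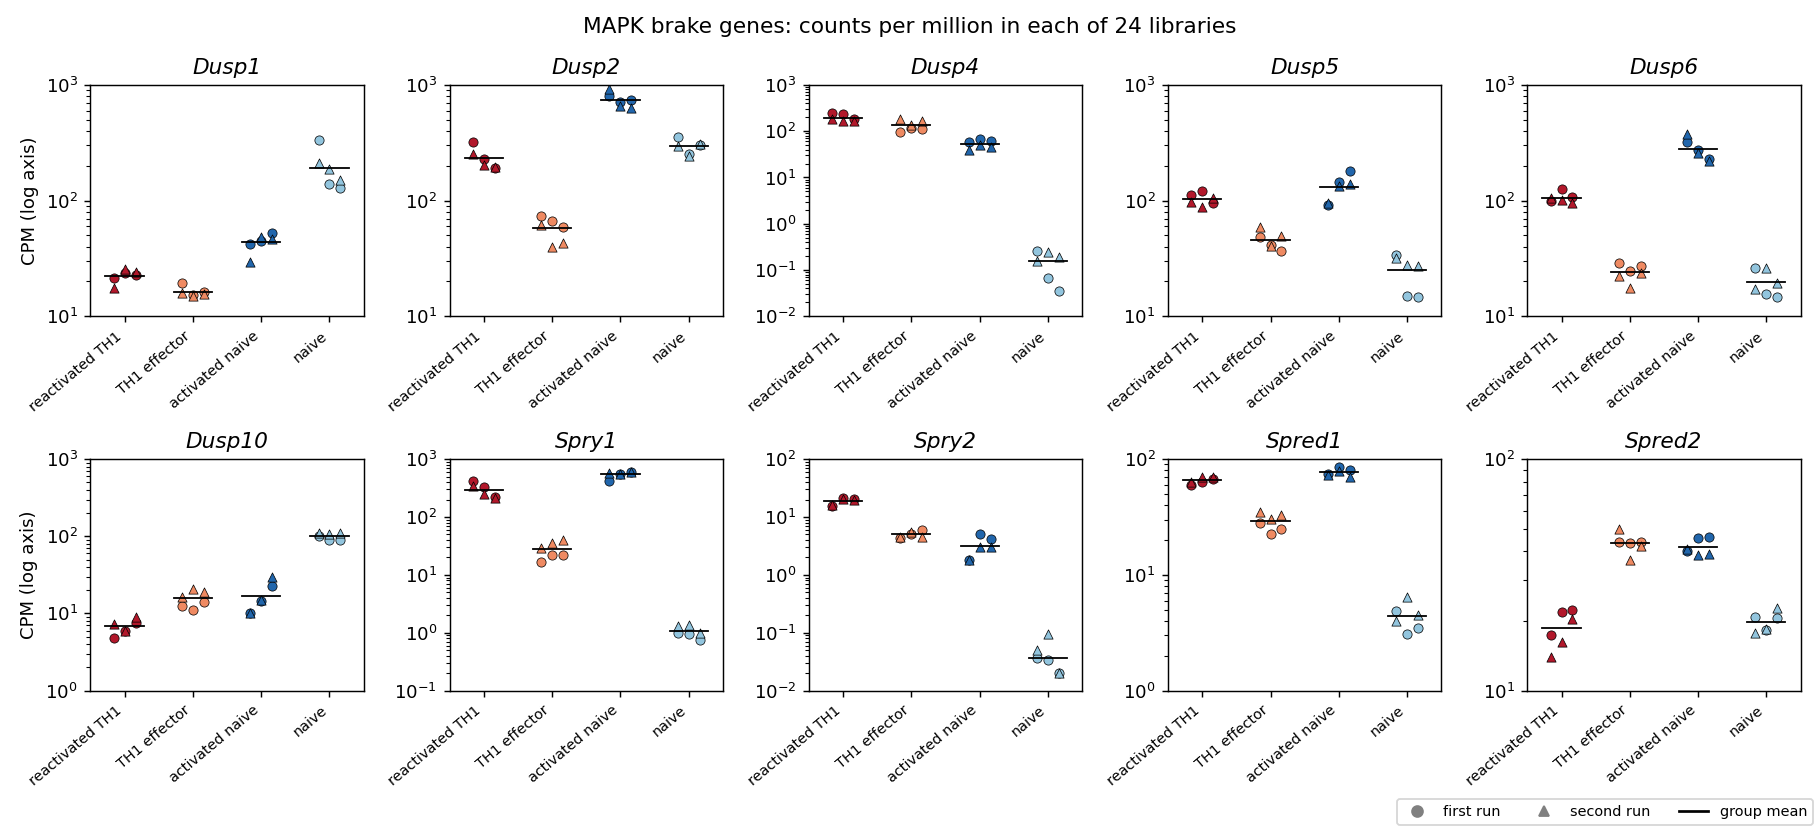
Normalised counts (CPM, log axis, its range set per gene) of the 10 MAPK brake genes in each of 24 libraries, by group, with circles for the first sequencing run, triangles for the second and a bar for the group mean. A library with no count (Spry2 in 2 naive libraries) is drawn near the lower edge. Dusp1 and Dusp10 stand highest in naive libraries, Dusp4 and Spry2 in reactivated TH1 libraries, and Dusp2, Dusp6 and Spry1 in activated naive libraries.

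Dusp5 and Dusp6 encode the phosphatases with a preference for ERK, in the nucleus and in the cytoplasm. The lowest, median and highest of the 6 libraries for Dusp5 (chr19:53529109-53542431, plus strand) were 88.7, 102 and 122 CPM in reactivated TH1 cells and 36.4, 44.8 and 58.6 CPM in TH1 effector cells. They were 91.9, 136 and 180.2 CPM in activated naive cells and 14.7, 27.6 and 33.6 CPM in naive cells. Both stimulated groups lay above both resting groups with no overlap, and the stimulated groups overlapped each other. Dusp5 rose 2.27-fold in reactivated TH1 against TH1 effector cells (log2 change 1.18, SE 0.115, adjusted p = 1.04e-05) and 5.28-fold in activated naive against naive cells (log2 change 2.40, SE 0.26, adjusted p = 2.96e-10). It was also 1.84-fold higher in TH1 effector than in naive cells (log2 change 0.88, SE 0.22, adjusted p = 0.000346). Reactivated TH1 against activated naive cells gave a log2 fold change of -0.34 (SE 0.18, adjusted p = 0.107), which was past the threshold in the second run alone (adjusted p = 0.0482) and with only these groups fitted (0.0343). An antisense gene that is not among the counted genes shares 547 exon bases with Dusp5, and without the strand setting of the counting, not given in the sources used here, its reads cannot be told from those of Dusp5.

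The start of Dusp5 is shown because 2 serum response elements, sites of the CArG box kind bound by serum response factor, lie end to end in it. RefSeq (build GRCm38.p6) places its 250 bases before the start at chr19:53528895-53529144, plus strand. Capitals mark the elements, at positions -82 to -73 and -72 to -63 counted back from the start.

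Dusp5: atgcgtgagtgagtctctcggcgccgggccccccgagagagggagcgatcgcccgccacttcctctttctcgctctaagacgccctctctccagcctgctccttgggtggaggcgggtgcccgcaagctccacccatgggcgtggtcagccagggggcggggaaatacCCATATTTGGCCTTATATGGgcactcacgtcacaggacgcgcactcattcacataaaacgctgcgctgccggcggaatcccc

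Across 32851 RefSeq mouse promoters of 250 bases before to 50 after the start, 1.63% hold such an element. A match is a description of letters, not a site shown to be used.

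Dusp6 (chr10:99263231-99267489, plus strand) was at 96.1, 104 and 125 CPM in reactivated TH1 cells and 17.65, 24.3 and 28.8 CPM in TH1 effector cells (lowest, median and highest library). Its levels were 218, 267 and 379.7 CPM in activated naive cells and 14.6, 18.4 and 26.3 CPM in naive cells. The resting groups overlapped each other and lay far below the stimulated ones, of which activated naive cells were the higher. Dusp6 rose 4.39-fold in reactivated TH1 against TH1 effector cells (log2 change 2.13, SE 0.09, adjusted p = 1.99e-11) and 14.1-fold in activated naive against naive cells (log2 change 3.82, SE 0.21, adjusted p = 7e-16). It was 2.64-fold lower in reactivated TH1 than in activated naive cells (log2 change -1.40, SE 0.15, adjusted p = 1.36e-08). TH1 effector against naive cells, at a log2 fold change of 0.28 (SE 0.18, adjusted p = 0.1), did not pass the test. It passed in the first run alone (0.55, adjusted p = 0.0267) and without TH1 effector number 5 (adjusted p = 0.0427), naive number 1 (0.0333) or naive number 5 (0.028), while the second run alone gave 0.02 (adjusted p = 0.928).

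Dusp1, Dusp2 and Dusp4 encode nuclear phosphatases that act on more than 1 kind of MAPK. Dusp1 (MKP-1; chr17:26505590-26562128, minus strand), with a preference for p38 and JNK, was highest in resting naive cells. It was at 17.7, 23.2 and 25.7 CPM in reactivated TH1 cells and 14.96, 15.8 and 19.25 CPM in TH1 effector cells. In activated naive cells it was at 29.5, 46.0 and 52.3 CPM, and in naive cells at 129, 167.7 and 333 CPM. Naive libraries stood above all others, activated naive libraries above all TH1 libraries, and the 2 TH1 groups overlapped. Dusp1 fell 4.33-fold in activated naive against naive cells (log2 change -2.12, SE 0.26, adjusted p = 3.42e-10) and was 11.8-fold lower in TH1 effector than in naive cells (log2 change -3.56, SE 0.24, adjusted p = 1.15e-13). Among TH1 cells, reactivated against effector, it rose 1.39-fold (log2 change 0.47, SE 0.10, adjusted p = 0.0248). That last call was lost in the first run alone (adjusted p = 0.308), under scaling by library size (0.0918), among genes of at least 10 CPM (0.0523), and without TH1 effector number 2 (0.0525) or reactivated TH1 number 5 (0.057).

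Dusp1 is also known to be induced when cells are handled, and a list of 15 genes known for that response, Dusp1 not among them, was followed beside it. The summed level of the list was 1290 to 1630 CPM in reactivated TH1, 1240 to 1460 in TH1 effector, 2610 to 3660 in activated naive and 3750 to 6750 CPM in naive libraries. In naive number 1, the library with the most Dusp1 (333 CPM), the list was at its highest, with 864 CPM of Fos and 841 CPM of Jun, both subunits of the AP-1 transcription factor. Fos averaged 8.91 CPM in reactivated TH1, 17.5 in TH1 effector and 642 CPM in naive libraries, and lay at 34.8 to 54.8 CPM in activated naive libraries. Of the 15 genes, 4 rose and 9 fell in activated naive against naive cells (41.3% and 40.5% of all tested genes). Among those that rose, Egr1 was 12.1-fold higher in activated naive cells (adjusted p = 4.65e-08). Atf3 averaged 85.1 CPM in activated naive libraries and had no count in naive ones. Without naive number 1 the log2 fold change of Dusp1 in activated naive against naive cells was -1.88 (adjusted p = 4.76e-12). The part of the handling response in the Dusp1 values was not tested.

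Dusp2 (PAC-1; chr2:127336159-127338376, plus strand), a phosphatase of immune cells, was at 189.6, 217 and 320.2 CPM in reactivated TH1 cells and 39.9, 60.7 and 73.8 CPM in TH1 effector cells. Activated naive cells had 629, 733 and 930.3 CPM, and naive cells 244, 300.5 and 358 CPM. Activated naive libraries lay above all others, TH1 effector libraries below all others, and reactivated TH1 and naive libraries overlapped. Dusp2 rose 4.05-fold in reactivated TH1 against TH1 effector cells (log2 change 2.02, SE 0.17, adjusted p = 7.7e-12) and 2.54-fold in activated naive against naive cells (log2 change 1.35, SE 0.13, adjusted p = 4.45e-09). TH1 effector cells had 5.15-fold less of it than naive cells (log2 change -2.36, SE 0.14, adjusted p = 3.42e-13). Reactivated TH1 cells were 1.27-fold below naive cells (log2 change -0.35, SE 0.15, adjusted p = 0.023), a call lost in either run alone (adjusted p = 0.116 in the first and 0.1 in the second) and without reactivated TH1 number 3 (0.0659), reactivated TH1 number 6 (0.0519) or naive number 1 (0.0567).

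The starts of Dusp1 and Dusp2 are shown because Dusp1 fell when naive cells were stimulated while most of the 10 rose, and Dusp2 had the most transcript per length in 3 of the 4 groups. In the 250 bases before the start of Dusp1 (RefSeq, GRCm38.p6, chr17:26508473-26508722, minus strand) capitals mark a cyclic AMP response element (CRE, TGACGTCA) at -143 to -136 and an E-box (CACGTG) at -126 to -121. In those of Dusp2 (chr2:127335909-127336158, plus strand) they mark an E-box at -109 to -104. The RefSeq start of Dusp1 lies inside the GENCODE span given above, which begins further upstream.

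Dusp1: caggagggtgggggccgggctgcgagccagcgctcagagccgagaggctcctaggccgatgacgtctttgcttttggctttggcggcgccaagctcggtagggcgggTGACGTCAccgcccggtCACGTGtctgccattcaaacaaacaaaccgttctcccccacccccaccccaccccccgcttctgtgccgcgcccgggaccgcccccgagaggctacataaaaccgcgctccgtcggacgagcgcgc

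Dusp2: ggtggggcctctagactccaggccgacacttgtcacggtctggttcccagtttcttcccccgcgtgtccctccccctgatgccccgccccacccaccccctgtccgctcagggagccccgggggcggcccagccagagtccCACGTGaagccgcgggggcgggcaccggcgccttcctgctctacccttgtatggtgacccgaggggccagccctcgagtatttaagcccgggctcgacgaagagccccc

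The CRE was found in 1.79% and the E-box in 7.15% of the 32851 promoters. In all, 8 motifs, chosen after the values were known, were searched on both strands of the 9 members with a RefSeq promoter: these 2, the serum response element, AP-1 (TGANTCA), ETS (CCGGAAG), EGR (GCGTGGGCG), NF-kB and the TATA box (TATAAA). None of them overlapped another where found. The promoters of Dusp6, Dusp10, Spry1, Spry2, Spred1 and Spred2 held none of these letters in the window. Dusp4 had no entry.

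Dusp4 (MKP-2; chr8:34807297-34819894, plus strand) was almost without counts in naive cells, 22 in all over the 6 libraries, and was abundant in every other group. Its lowest, median and highest libraries had 164.3, 184 and 250.3 CPM in reactivated TH1 cells, 94.9, 125 and 186 CPM in TH1 effector cells and 38.6, 54.3 and 66.7 CPM in activated naive cells. In naive cells they had 0.0356, 0.1705 and 0.258 CPM. The order was reactivated TH1, TH1 effector, activated naive and naive, with overlap between the 2 TH1 groups alone. TH1 effector cells were 2.54-fold above activated naive cells (log2 change 1.345, SE 0.10, adjusted p = 8.02e-08) and activated naive cells 347-fold above naive cells (log2 change 8.44, SE 0.36, adjusted p = 2.58e-17), the size of this last fold resting on those 22 counts. Dusp4 rose 1.45-fold in reactivated TH1 against TH1 effector cells (log2 change 0.53, SE 0.11, adjusted p = 0.00444), but the runs gave different values. In the first run reactivated TH1 libraries had 182 to 250.3 CPM and TH1 effector libraries 94.9 to 117 CPM, with no overlap (log2 fold change 1.0, adjusted p = 1.34e-05). In the second run reactivated TH1 libraries had 164.3 to 186 CPM and TH1 effector libraries 133 to 186 CPM, which overlapped (log2 fold change 0.11, adjusted p = 0.419).

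Dusp10 (MKP-5; chr1:184013302-184075636, plus strand), which acts on p38 and JNK, fell in both stimulations, as no other of the 10 genes did. It was at 4.87, 6.64 and 8.99 CPM in reactivated TH1 cells and 11.2, 15.2 and 21.02 CPM in TH1 effector cells, and at 10.1, 14.6 and 29.9 CPM in activated naive cells and 88.8, 105 and 110.1 CPM in naive cells. Naive libraries lay above all others and reactivated TH1 libraries below all others, while TH1 effector and activated naive libraries overlapped. Dusp10 fell 2.29-fold in reactivated TH1 against TH1 effector cells (log2 change -1.19, SE 0.145, adjusted p = 1.94e-05) and 5.96-fold in activated naive against naive cells (log2 change -2.57, SE 0.285, adjusted p = 5.05e-11). TH1 effector cells had 6.55-fold less of it than naive cells (log2 change -2.71, SE 0.08, adjusted p = 2.38e-11). TH1 effector against activated naive cells did not pass, at a log2 fold change of -0.14 (SE 0.29, adjusted p = 0.522). Activated naive libraries spread widely here, with numbers 3 and 6 at 22.7 and 29.9 CPM and the other 4 at 10.1 to 14.9 CPM.

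Spry1, an inhibitor of RAS and RAF signalling that T cell receptor signals induce, lies at chr3:37639947-37644598, plus strand. Its libraries were at 212, 293 and 418 CPM in reactivated TH1 cells and 16.4, 25.5 and 39.98 CPM in TH1 effector cells. In activated naive cells they were at 424, 568 and 596 CPM and in naive cells at 0.7475, 0.991 and 1.345 CPM, with 151 counts in all. No 2 groups overlapped, and the order was activated naive, reactivated TH1, TH1 effector and naive. Spry1 rose 11.1-fold in reactivated TH1 against TH1 effector cells (log2 change 3.47, SE 0.19, adjusted p = 2.69e-13). In activated naive against naive cells it rose 524-fold (log2 change 9.03, SE 0.12, adjusted p = 1.32e-18). It was 25.7-fold higher in TH1 effector than in naive cells (log2 change 4.68, SE 0.14, adjusted p = 1.2e-13) and 1.84-fold lower in reactivated TH1 than in activated naive cells (log2 change -0.88, SE 0.18, adjusted p = 9.33e-05). The rise in TH1 cells was 3.98 on the log2 scale in run 1 and 2.96 in run 2. An uncounted gene on the other strand shares 710 exon bases with Spry1.

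Spry2 (chr14:105891947-105896819, minus strand), its relative, followed another order. It was at 15.4, 20.01 and 21.7 CPM in reactivated TH1 cells and 4.38, 4.89 and 5.97 CPM in TH1 effector cells. Activated naive libraries had 1.79, 3.02 and 5.035 CPM, and naive libraries 0, 0.0355 and 0.0961 CPM, with 5 counts in all. Reactivated TH1 libraries lay above all others and naive libraries below all others, and TH1 effector and activated naive libraries overlapped. Spry2 rose 3.79-fold in reactivated TH1 against TH1 effector cells (log2 change 1.92, SE 0.12, adjusted p = 4.57e-10) and was 6.07-fold higher in reactivated TH1 than in activated naive cells (log2 change 2.60, SE 0.27, adjusted p = 3.21e-12). It also rose in activated naive against naive cells (log2 change 6.34, SE 0.53, adjusted p = 8.45e-14), where 5 counts set the lower level and the runs alone gave log2 fold changes of 7.04 and 5.61. TH1 effector cells were 1.60-fold above activated naive cells (log2 change 0.68, SE 0.27, adjusted p = 0.00202), a call lost in the first run alone (adjusted p = 0.0981).

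Spred1 and Spred2 encode membrane-bound inhibitors that bring neurofibromin, the RAS-inactivating product of Nf1, to RAS. Spred1 (chr2:117121374-117182279, plus strand) was at 60.2, 66.0 and 70.8 CPM in reactivated TH1 cells, 22.4, 29.3 and 35.1 CPM in TH1 effector cells, 70.0, 77.3 and 85.35 CPM in activated naive cells and 3.08, 4.245 and 6.39 CPM in naive cells. It rose in both stimulations, and the stimulated groups overlapped a little. The rise was 2.29-fold in reactivated TH1 against TH1 effector cells (log2 change 1.198, SE 0.07, adjusted p = 1.05e-10) and 17.9-fold in activated naive against naive cells (log2 change 4.16, SE 0.15, adjusted p = 9.54e-21). TH1 effector cells were 6.64-fold above naive cells (log2 change 2.73, SE 0.15, adjusted p = 5.58e-17). Reactivated TH1 cells were 1.18-fold below activated naive cells (log2 change -0.23, SE 0.05, adjusted p = 0.041). This small difference was lost without reactivated TH1 number 1, 2, 4, 5 or 6 or activated naive number 1, 2 or 3 (adjusted p up to 0.115), in the second run alone (0.336), under scaling by library size (0.0542) and without the run as a term (0.0708).

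Spred2 (chr11:19924375-20024026, plus strand) moved in opposite directions in the 2 stimulations. It was at 13.99, 18.9 and 22.3 CPM in reactivated TH1 cells and 36.6, 43.6 and 49.9 CPM in TH1 effector cells. In activated naive cells it was at 38.6, 40.5 and 45.9 CPM and in naive cells at 17.7, 19.5 and 22.7 CPM. Reactivated TH1 and naive libraries shared a low level, and TH1 effector and activated naive libraries a high one, with no overlap between low and high. Spred2 fell 2.32-fold in reactivated TH1 against TH1 effector cells (log2 change -1.22, SE 0.12, adjusted p = 7.41e-12) and rose 2.11-fold in activated naive against naive cells (log2 change 1.08, SE 0.07, adjusted p = 5.3e-11). TH1 effector against activated naive cells did not pass, at a log2 fold change of 0.05 (SE 0.07, adjusted p = 0.579). Nor did reactivated TH1 against naive cells, at -0.08 (SE 0.12, adjusted p = 0.396), except under scaling by library size (-0.24, adjusted p = 0.0241). Nf1 averaged 49.6 ± 8.91 CPM in reactivated TH1, 59.7 ± 15.2 in TH1 effector, 72.4 ± 7.03 in activated naive and 18.7 ± 1.69 CPM in naive libraries (SD, n = 6 each). Nf1 rose 3.88-fold in activated naive against naive cells (adjusted p = 1.41e-16). It fell by 0.255 on the log2 scale in reactivated TH1 against TH1 effector cells (adjusted p = 0.0102), where 79.7% of all tested genes passed. These are the directions of Spred2 but not of Spred1, which rose in both stimulations.

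**Figure D2:**
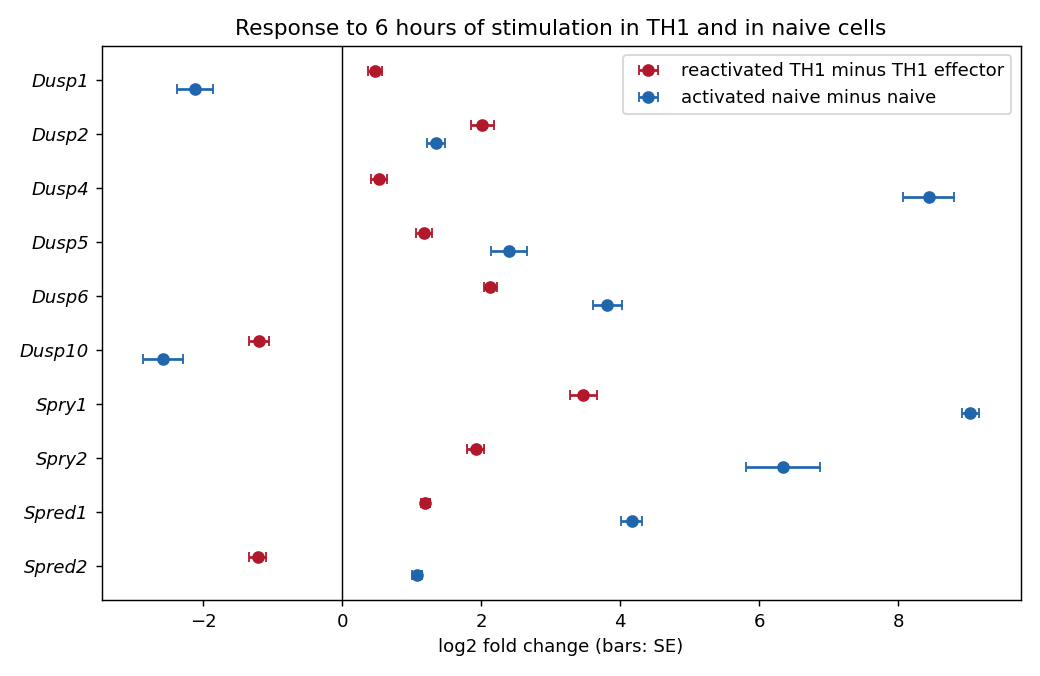
Log2 fold changes of the 10 MAPK brake genes in reactivated TH1 against TH1 effector cells (red) and in activated naive against naive cells (blue), with bars for the standard error of the difference of group means. The bars rest on the spread of libraries within each run and leave out differences between the runs. Dusp1 and Spred2 lie on opposite sides of 0 in the 2 stimulations, Dusp10 lies below 0 in both, and the other 7 genes lie above 0 in both.

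Whether the 2 stimulations differed was tested by subtracting the log2 change of naive cells from that of TH1 cells. All 10 genes passed that test (68.0% of all tested genes did), and 9 of them differed at least 2-fold, as did 30.3% of all. The response was lower in TH1 cells for 7 genes (33.7% of all tested genes): by -7.91 on the log2 scale for Dusp4, -5.56 for Spry1, -4.42 for Spry2, -2.96 for Spred1, -2.29 for Spred2, -1.68 for Dusp6 and -1.22 for Dusp5. It was higher for 3 genes (34.3% of all): by 2.59 for Dusp1, which fell in naive cells and rose slightly in TH1 cells, 1.38 for Dusp10, which fell less in TH1 cells, and 0.67 for Dusp2. Standard errors ran from 0.14 for Spred2 to 0.55 for Spry2, and adjusted p from 1.45e-14 for Spred1 to 0.00411 for Dusp2. The call for Dusp2 was lost in the first run alone (adjusted p = 0.0733). For Spry2 the runs alone gave -5.18 and -3.64. Dusp4, Spry1, Spry2 and Spred1 started from higher levels in TH1 effector than in naive cells, by log2 fold changes of 9.78, 4.68, 7.02 and 2.73.

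The other comparisons cross the axis of stimulation. In TH1 effector against naive cells 9 of the 10 genes passed the test (84.9% of all tested genes did), 6 higher (44.6% of all) and 3 lower (40.3%). Of the 10, 8 differed at least 2-fold (41.6% of all) and 9 did not overlap (69.0%). Dusp4, Dusp5, Spry1, Spry2, Spred1 and Spred2 were the higher ones, and Dusp1, Dusp2 and Dusp10 the lower ones. In reactivated TH1 against activated naive cells 9 passed (79.8%), 2 higher (43.4%) and 7 lower (36.4%), 6 differed at least 2-fold (34.1%), and 8 did not overlap (60.2%). Dusp4 and Spry2 were the 2 that stood higher in reactivated TH1 cells, Dusp4 3.67-fold (log2 change 1.88, SE 0.10, adjusted p = 5.14e-10). In TH1 effector against activated naive cells 8 passed (86.9%), 2 higher (45.6%), again Dusp4 and Spry2, and 6 lower (41.2%), 7 differed at least 2-fold (48.6%), and 7 did not overlap (71.2%). In reactivated TH1 against naive cells 9 passed (87.6%), 6 higher (47.9%) and 3 lower (39.8%), 8 differed at least 2-fold (52.9%), and 8 did not overlap (75.4%). These comparisons share groups with those above and are no separate evidence.

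Per length of exon, which allows genes to be compared, the 10 transcripts together reached 397 ± 64.3 CPM per kb in reactivated TH1, 140.1 ± 16.3 in TH1 effector, 765 ± 61.6 in activated naive and 259.7 ± 44.2 CPM per kb in naive libraries (SD, n = 6 each). The libraries of each stimulated group lay above those of its resting counterpart, and the make-up of the sum differed between groups. Reactivated TH1 cells had most of their sum in Dusp2 (29.0%), Spry1 (25.3%) and Dusp4 (18.1%), and TH1 effector cells in Dusp4 (35.0%), Dusp2 (20.8%) and Dusp5 (13.2%). In activated naive cells Dusp2 (48.6%), Spry1 (24.8%) and Dusp6 (11.6%) led, and in naive cells Dusp2 (56.9%), Dusp1 (21.7%) and Dusp10 (13%). Dusp4 made up 2.59% in activated naive and 0.0215% in naive cells. Spry2, Spred1 and Spred2 were each a small part of every group, the largest being Spred2 in TH1 effector cells with 6.72%.

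**Figure D3:**
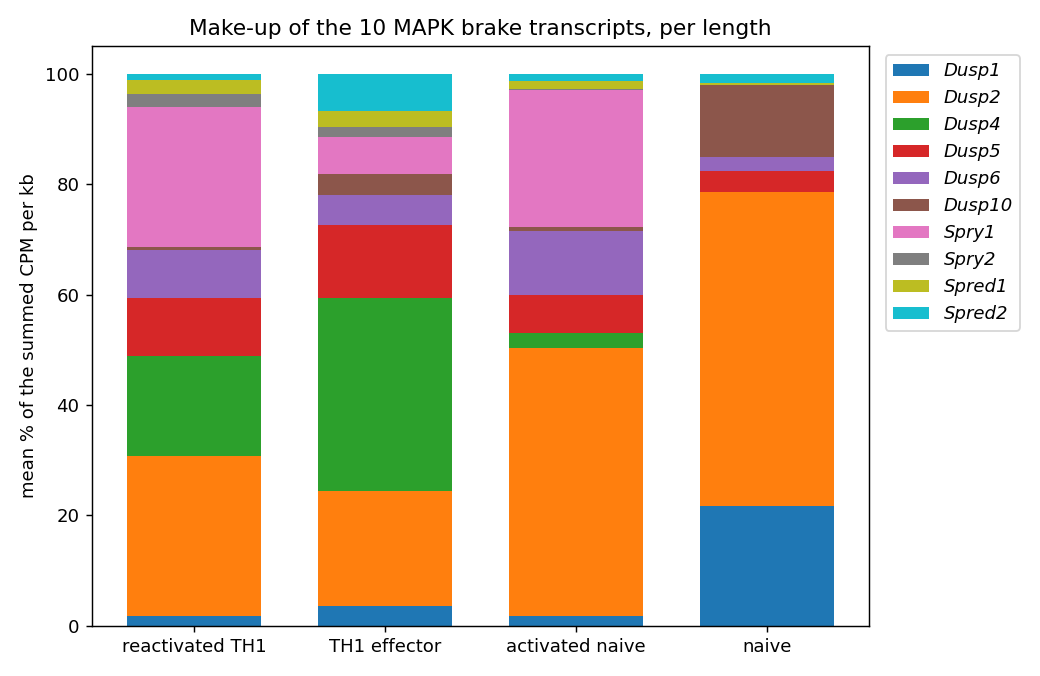
Make-up of the 10 MAPK brake transcripts by group, as the mean percent of each gene in the summed CPM per kb of exon over 6 libraries. The Dusp4 part is 18.1% in reactivated TH1 and 35.0% in TH1 effector cells, against 2.59% in activated naive and 0.0215% in naive cells, and Dusp1 and Dusp10 make up 21.7% and 13% in naive cells.

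Of 17 other DUSP, Sprouty and SPRED genes, 14 could be tested. In reactivated TH1 against TH1 effector cells 4 of the 14 rose and 7 fell, as did 39.9% and 39.8% of all tested genes (median log2 fold change -0.0854, and -0.00227 over all genes). In activated naive against naive cells 7 rose and 5 fell, as did 41.3% and 40.5% of all (median 1.28, and 0.00464 over all). Spred3, the third SPRED gene, averaged 5.04 ± 1.48 CPM in reactivated TH1, 30.9 ± 4.83 in TH1 effector, 3.19 ± 0.841 in activated naive and 0.355 ± 0.163 CPM in naive libraries. It fell 6.21-fold in reactivated TH1 against TH1 effector cells (log2 fold change -2.63, SE 0.10, adjusted p = 2.09e-12), and so moved in the direction of Spred2. Dusp16 (MKP-7), a phosphatase for JNK and p38, averaged 43.4 ± 3.37 CPM in reactivated TH1, 32.2 ± 5.09 in TH1 effector, 34 ± 3.0 in activated naive and 4.14 ± 0.659 CPM in naive libraries, and rose 8.21-fold in activated naive against naive cells (adjusted p = 2.45e-19). Dusp7, a cytoplasmic ERK phosphatase related to Dusp6, fell 3.18-fold to 17.7 ± 2.31 CPM in activated naive cells, against 56.1 ± 3.09 CPM in naive cells (adjusted p = 8.87e-13). Dusp22 fell 2.23-fold in reactivated TH1 against TH1 effector cells (adjusted p = 4.65e-12) and rose 3.15-fold in activated naive against naive cells (adjusted p = 5.8e-15).

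In the cascades that these brakes act on, genes rose and fell in numbers near those of genes at large, of which 39.9% rose and 39.8% fell in the TH1 stimulation and 41.3% rose and 40.5% fell in the naive one. Of 20 tested genes of the path from the receptor to ERK, 9 rose and 10 fell in reactivated TH1 against TH1 effector cells, and 7 rose and 10 fell in activated naive against naive cells. Mapk3, which encodes ERK1, averaged 14 ± 2.93 CPM in reactivated TH1, 58.9 ± 3.69 in TH1 effector, 6.83 ± 1.17 in activated naive and 36.7 ± 3.15 CPM in naive libraries, and fell 5.38-fold in activated naive against naive cells (adjusted p = 3.95e-16). Rasgrp1, an activator of RAS in T cells, fell 4.51-fold in reactivated TH1 against TH1 effector cells (adjusted p = 2.69e-21). Rasa3, which inactivates RAS, fell 5.59-fold there (adjusted p = 1.12e-16) and 22.8-fold in activated naive against naive cells (adjusted p = 1.04e-21). Of 15 genes of the p38 and JNK arms 8 rose and 6 fell in the TH1 stimulation, and 8 rose and 5 fell in the naive one. Map2k3, a kinase that activates p38, averaged 320 ± 90.3 CPM in reactivated TH1, 47.7 ± 4.42 in TH1 effector, 1120 ± 152 in activated naive and 30.2 ± 1.36 CPM in naive libraries. Map2k6, of the same list, went the other way, at 0.824 ± 0.225 CPM in reactivated TH1 and 6.06 ± 0.878 CPM in TH1 effector libraries. In activated naive libraries it averaged 0.0122 ± 0.019 CPM, with 2 counts in all, against 20.0 ± 1.94 CPM in naive ones. That fall passed the test (log2 fold change -10.15, adjusted p = 2.93e-21). For the TH1 stimulation the median log2 fold change was -0.0226 over the first of these lists and 0.359 over the second. In activated naive against naive cells the medians were -0.126 and 0.616.

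Genes known as outputs of ERK are described by their counts, beside those of all tested genes. In reactivated TH1 against TH1 effector cells 9 of 15 rose and 3 fell (39.9% and 39.8% of all), with a median log2 fold change of 0.578, against -0.00227 over all genes. In activated naive against naive cells 11 rose and 4 fell (41.3% and 40.5% of all), with a median of 2.99, also with genes without naive counts at their lower bound, against 0.00464 over all. Egr2, a transcription factor gene of receptor signalling, averaged 354 ± 50.9 CPM in reactivated TH1, 4.7 ± 1.84 in TH1 effector, 617 ± 119 in activated naive and 4.33 ± 0.73 CPM in naive libraries. It rose 74.2-fold in the TH1 stimulation and 144-fold in the naive one (adjusted p = 5.66e-17 and 2.92e-18). Etv5, an ETS factor gene, instead fell 3.9-fold in reactivated TH1 against TH1 effector cells (adjusted p = 8.42e-13), with 34.9 ± 2.54 CPM in reactivated TH1 and 137 ± 36.7 CPM in TH1 effector libraries. Fos and Fosb, which like Dusp1 stood highest in naive libraries, fell 14.4-fold and 51.9-fold in activated naive against naive cells (adjusted p = 2.61e-09 and 1.59e-10). Fos, Fosb, Junb, Egr1, Ier2 and Ier3 stand on both this and the handling list.

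**Figure D4:**
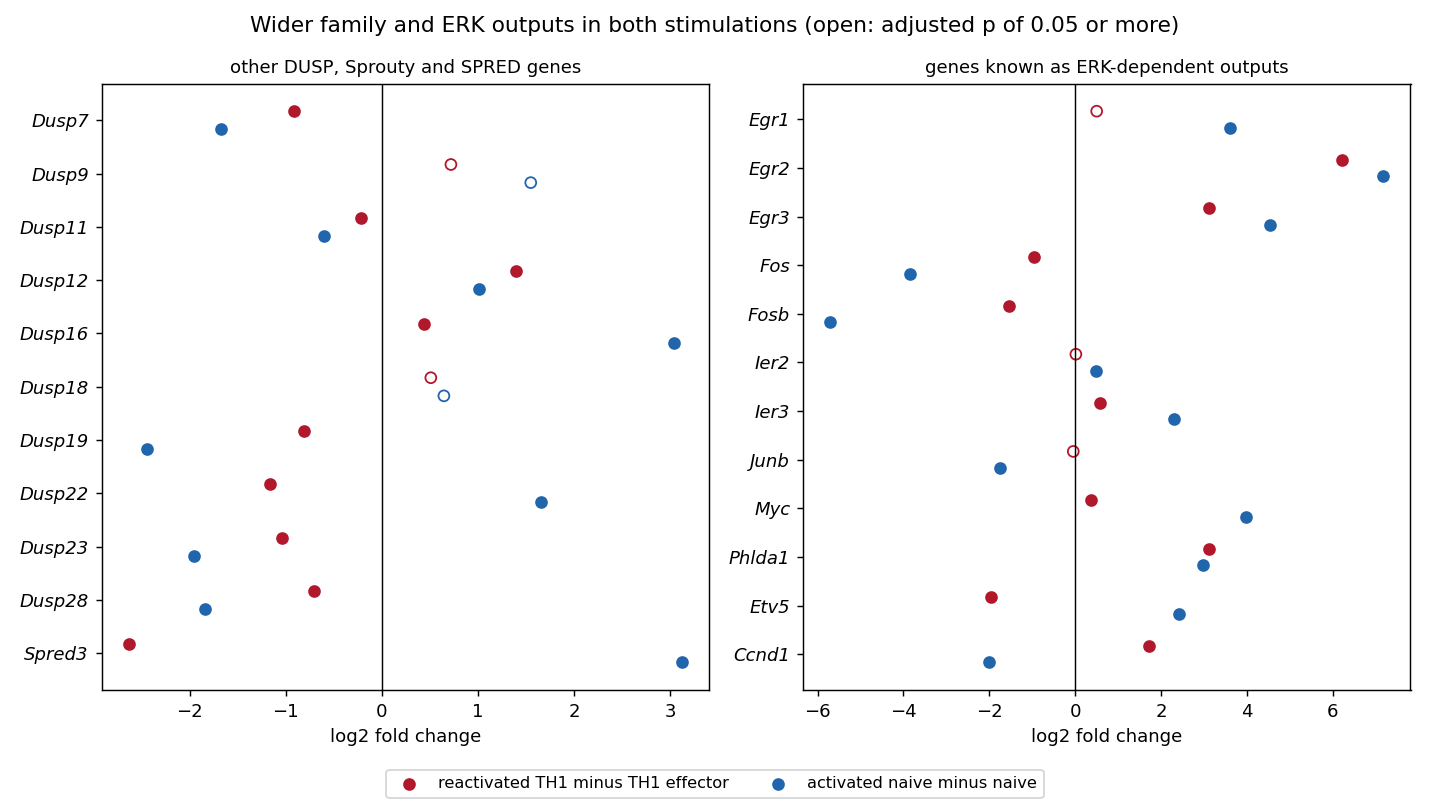
Log2 fold changes of other DUSP, Sprouty and SPRED genes (left) and of genes known as ERK-dependent outputs (right) in reactivated TH1 against TH1 effector cells (red) and in activated naive against naive cells (blue), with open points for an adjusted p of 0.05 or more. Genes with 3 counts or fewer in a group of these comparisons are left out, and Spred3, Dusp22 and Etv5 lie below 0 in TH1 cells and above 0 in naive cells.

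For each member the tested gene of most similar pattern was sought, by the root mean square difference of log2 CPM after centring each gene on its own mean over the 24 libraries. Candidates were tested genes outside the 10 members that averaged at least 10 CPM in some group. The libraries of a group share their condition, so this measure reads the 4 group means as well. Dusp1 was closest to Ppp1r15a (difference 0.255 log2 units, the median over candidate genes being 1.48), a gene of the stress response. Dusp4 was closest to Bhlhe40 (0.472, median 4.22), a transcription factor gene, and next to Tbx21 (0.675), the gene of the TH1 transcription factor T-bet. Dusp2 was closest to Cd27 (0.341), Dusp5 to Xpot (0.311), Dusp6 to Plk3 (0.278) and Dusp10 to Glcci1 (0.264). Spry1 was closest to Sema7a (0.684), Spry2 to Sytl3 (0.758), Spred1 to Sh3rf1 (0.337) and Spred2 to Socs1 (0.229). Among the members themselves the nearest pairs were Dusp1 and Dusp10 (0.755), Dusp5 and Spred1 (0.824) and Dusp5 and Dusp6 (0.827), while Spry1 and Spry2 were each closer to another member than to each other.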

How the data were processed

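RNA of 24 libraries of mouse CD4 T cells, 6 in each of 4 groups, was sequenced. The authors deposited raw counts per gene for each library, which were used as deposited. STAR, HTSeq and DESeq2 and the build mm10 are named in the submitters' processing notes, and the strand setting of the counting is not given in the sources used here. Rows that name no gene were left out of library sizes and tests. The largest of them, reads in no feature, made up 13.221% to 24.4546% of each library, with group means of 15.612% in reactivated TH1, 17.236% in TH1 effector, 22.816% in activated naive and 23.119% in naive libraries.

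The counts were fitted with edgeR 4.0.16 in R 4.3.3 (quasi-likelihood test with robust dispersion, TMM scaling, filterByExpr), with group and sequencing run as terms and all 24 libraries in the fit. Each library's run was taken from the flow cell code in its deposited file's name. P-values were adjusted by the Benjamini-Hochberg method over 12584 genes. DESeq2 1.42.0, other scalings, filters and terms, each run alone, a replicate block and leaving out each library were alternatives. The script was tested on simulated data. Exon lengths came from GENCODE M21 and promoters from RefSeq.

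The sample titles repeat the same numbers in every group. Libraries with the same number correlated in their deviations from the group means in 35 of 36 pairs at over 0.1 (0.0755 to 0.379), and the numbers also follow the runs. With deviations taken from the means of each group within a run, the correlations were 0.0464 to 0.381. By deviations from the group means alone, the same number correlated better than any other number in 33 of the 36 pairs. That count was not taken within runs. The main test does not pair libraries by number, and the replicate block does. The smallest difference between 2 libraries of a group was 8.896 times the sampling noise (chi-square per degree of freedom), so none was counted as a repeat. The members and lists were chosen with earlier results of these data known. All 10 members are described. Of other lists, the text names the 2 largest changes in each direction per comparison among genes of at least 10 CPM in the higher group. Fos and Jun in naive number 1, Nf1 in the TH1 comparison, and Eomes, Cd8b1, Zbtb46 and Itgax among the markers were named after their values were seen. For likeness, up to 3 genes per member were taken.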

Additional observations from a re-analysis of the deposited data

Results flagged for a closer look

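The response to stimulation differed between TH1 and naive cells for all 10 brake genes by edgeR's quasi-likelihood test of the difference itself, as it did for 68.0% of all tested genes. The log2 change of TH1 cells less that of naive cells was 2.59 for Dusp1, 0.673 for Dusp2 and 1.38 for Dusp10. It was -7.91 for Dusp4, -5.56 for Spry1, -4.42 for Spry2, -2.96 for Spred1, -2.29 for Spred2, -1.68 for Dusp6 and -1.22 for Dusp5. For Dusp1 and Spred2 the directions were opposite. The values for Dusp4 and Spry2 rest on 22 and 5 counts in the naive libraries.

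In 2 of 40 groups of 6 libraries a library stood apart from the rest by Dixon's test, where chance flags about 1 in 20. Dusp1 was highest in TH1 effector number 1, at 19.2 CPM. Spry1 was lowest in activated naive number 1, at 424 CPM.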

How the results depend on the processing

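Of 70 results on the 10 genes, 65 passed the test, and 59 kept direction and side of the threshold under every setting run. There were 34 settings for a comparison of 2 groups, and 1 fewer for the difference of the responses, where a fit of only the compared groups would be the same as that of all 4. No called result reversed, 6 lost their call under some setting, and those are given beside the results. Results that did not pass and changed sign were Spred2 in reactivated TH1 against naive cells (0.0471 in the first run alone), Spred2 in TH1 effector against activated naive cells (-0.0377 without TH1 effector number 4), and Dusp10 in TH1 effector against activated naive cells (0.00817 in the second run alone, 0.0177 and 0.0576 without activated naive numbers 3 and 6). Leaving out 1 library at a time, Dusp10 ranged there from -0.279 to 0.0576 and Spred2 from -0.0377 to 0.0888. The cause was not tested.

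With the replicate block, the pairing of libraries by number, no call on the 10 genes changed, and 10336 genes passed in activated naive against naive cells and 10111 in reactivated TH1 against TH1 effector cells, against 10303 and 10032 without it. Scaling by library size moved the median log2 fold change of all genes by -0.142 in activated naive against naive cells and by -0.122 in reactivated TH1 against TH1 effector cells. Counting depth limits Dusp4 and Spry2 in naive cells, where 22 and 5 counts set the level.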
